A study of Homo sapiens with 2 samples.

Results

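NOTCH receptors, their ligands and their target genes were compared by mRNA sequencing between 2 xenograft tumours. Both came from NCI-N87, a human gastric cancer line whose ERBB2 (HER2) gene is amplified, implanted under the skin of nude mice, which lack T cells but keep other leukocytes. The set was fixed by name as 9 genes, all 9 of which were among the 29972 genes of the deposited table. They are the receptors NOTCH1, NOTCH2 and NOTCH3, the ligands JAG1, JAG2, DLL1 and DLL4, and the targets HES1 and HEY1. The refractory tumour had stopped responding to trastuzumab emtansine (T-DM1), a HER2 antibody that carries the microtubule poison DM1, given every 3 weeks for 18 weeks. The untreated tumour of the same line received no drug. Each group was 1 library, so no difference below has a replicate check, no test across samples was possible, and each interval covers counting error only. The libraries held 59902704 (refractory) and 75722117 (untreated) expected counts, and ERBB2, the drug target, stood at 7975 and 7267 CPM in them. CPM are counts divided by library size, after scaling by TMM, a method that trims the most divergent genes.

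NOTCH receptors are single-pass membrane proteins that signal between touching cells. A ligand of the Jagged or Delta-like type on one cell pulls on the receptor of its neighbour, ADAM10 and then gamma-secretase cut the receptor, and the freed intracellular domain enters the nucleus. There it joins RBPJ, a DNA-binding protein, and a Mastermind coactivator at target genes such as HES1 and HEY1, which encode transcriptional repressors. In the gut this pathway keeps progenitors undifferentiated and holds back secretory cells, and in stratified epithelia it promotes differentiation.

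RBPJ binds a core of TGGGAA, so the 250 bases before the annotated start were searched for this core and its reverse complement TTCCCA in the genes with a promoter in the RefSeq table (GRCh38.p14). Of the 9 genes, 7 were matched there. HES1, the canonical target and the only one of the 7 with a match, held 2 copies on its own strand, whose first bases lay 84 and 70 bases before the start. NOTCH3, the receptor with the largest difference between the tumours, held none. HEYL, a HES1 relative from the wider target list, is shown beside them because it also held 2, on opposite strands. Of 6 genes of that list searched, 3 held a match, HES4 and HEY2 with 1 each beside HEYL. NRARP, HES2 and HES6 held none. At least 1 match was present in 20.8% of all 35116 promoter windows of this length and at least 2 were present in 2.90%. A match is an exact run of letters and not a measured binding site, and variants of the core were not searched. The sequences of HES1 (chr3:194135898-194136147, plus strand), HEYL (chr1:39639644-39639893, minus strand) and NOTCH3 (chr19:15200996-15201245, minus strand) run 5′ to 3′ toward the start, with the matches in capitals.
HES1: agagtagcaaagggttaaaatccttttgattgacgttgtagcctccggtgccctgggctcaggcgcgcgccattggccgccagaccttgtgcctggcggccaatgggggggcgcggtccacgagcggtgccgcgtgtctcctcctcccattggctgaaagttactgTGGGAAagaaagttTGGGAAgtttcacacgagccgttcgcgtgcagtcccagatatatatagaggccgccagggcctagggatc
HEYL: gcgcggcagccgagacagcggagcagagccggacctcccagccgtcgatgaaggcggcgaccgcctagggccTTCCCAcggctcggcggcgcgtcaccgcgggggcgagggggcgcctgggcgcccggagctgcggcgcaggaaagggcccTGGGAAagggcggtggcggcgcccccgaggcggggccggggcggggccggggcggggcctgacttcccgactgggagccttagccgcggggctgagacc
NOTCH3: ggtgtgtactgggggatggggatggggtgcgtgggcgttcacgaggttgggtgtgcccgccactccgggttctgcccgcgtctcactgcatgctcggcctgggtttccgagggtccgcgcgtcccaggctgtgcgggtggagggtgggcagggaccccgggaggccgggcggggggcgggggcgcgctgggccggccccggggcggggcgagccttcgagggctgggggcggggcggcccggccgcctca

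The comparison asks how NOTCH pathway mRNA differs once a tumour is refractory to T-DM1. NOTCH3 was the one member past 2-fold, with 29.8 CPM in the refractory and 175 CPM in the untreated tumour. NOTCH1, NOTCH2, JAG1 and HES1 were also lower in the refractory tumour, each by less than 2-fold. JAG2 and HEY1 differed little, and DLL1 and DLL4 were close to the detection limit in both tumours. Log2 changes set refractory over untreated with 1 CPM added to each, which makes the change of weakly expressed genes look smaller. A gene was described where its higher library reached 1 CPM.

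Under these settings 7 of the 9 members were described, and all 7 exceeded 1 CPM in both libraries. A 2-fold difference was met by 1 member in the lower direction, against 11.0% of the 14167 described genes of the table, and by 0 in the higher direction, against 9.80%. With no threshold, 5 of the 7 lay below 0, against 48.0% of all described genes. The median log2 change was -0.40 over the 7 members and 0.03 over all described genes.

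**Figure D1:**
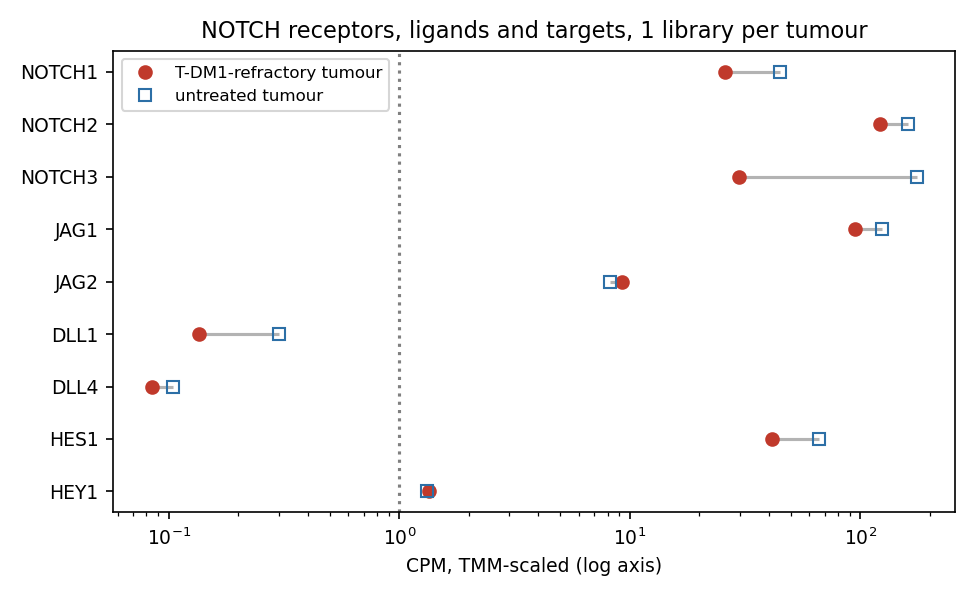
CPM (horizontal log axis) of the 9 genes in the refractory tumour (filled circles) and the untreated tumour (open squares), 1 library each; the dotted line marks 1 CPM. NOTCH3 has the longest connecting line among the genes above 1 CPM, with 29.8 CPM in the refractory and 175 CPM in the untreated tumour.

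NOTCH3 (chromosome 19, coding sequence 15160662 to 15200905, minus strand) had 1766 counts in the refractory library and 13389 in the untreated one. The ratio of CPM was 0.17 (95% exact interval 0.162 to 0.179), or 5.88-fold lower in the refractory tumour. Its log2 change of -2.52 lay at the 2.41 percentile of all described genes. NOTCH3 is a receptor best known from smooth muscle and pericytes of arteries, and it is also expressed in epithelial tumours. In the authors' deposited table its log2 fold change was -2.56 with a p-value of 0.0248. The other 8 members had p-values between 0.40 (DLL1) and 1 (DLL4) in the authors' deposited table. A p below 0.05 was held by 7.20% of all 29972 genes in the authors' deposited table, undetected genes included. That p sets 1 library against 1.

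NOTCH1 (chromosome 9, 136496071 to 136545786), a receptor that both drives and restrains tumours depending on the tissue, had 26.0 CPM in the refractory and 45.0 CPM in the untreated tumour. The ratio was 0.578 (95% exact interval 0.544 to 0.614). NOTCH2 (chromosome 1, 119915306 to 120069406) had 122.0 CPM in the refractory and 161 CPM in the untreated tumour, a ratio of 0.756 (0.734 to 0.778). Neither interval reached 1, and neither difference reached 2-fold. NOTCH2 shares sequence with NOTCH2NL, a partial duplicate on the same chromosome, and the division of reads between them is uncertain. NOTCH2NL, looked up after the values were seen, stood at 9.30 CPM in the refractory and 17.3 CPM in the untreated tumour.

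The make-up of receptor mRNA differed between the tumours. Levels of different genes were compared per transcript length, as FPKM (fragments divided by length and by depth, deposited by the authors). The 3 receptors summed to 18.1 FPKM in the refractory and 43.3 FPKM in the untreated tumour. NOTCH3 made up 21.1% of that sum in the refractory and 52.7% in the untreated tumour. NOTCH2 made up 63.2% and NOTCH1 15.8% of it in the refractory tumour, against 35.7% for NOTCH2 and 11.6% for NOTCH1 in the untreated tumour. NOTCH3 was thus the leading receptor by FPKM in the untreated library and NOTCH2 in the refractory library. As a share of receptor counts, with no length scaling, NOTCH3 took 16.7% (95% exact interval 16.0 to 17.5) in the refractory and 45.9% (45.3 to 46.5) in the untreated library. In these counts NOTCH2 led in the refractory library with 68.6%, and was second to NOTCH3 with 42.3% in the untreated library.

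Ratios within 1 library do not depend on the scaling between libraries. NOTCH3 over NOTCH1, both in FPKM, was 1.33 (95% exact interval 1.2 to 1.4) in the refractory and 4.53 (4.36 to 4.70) in the untreated tumour. NOTCH3 over NOTCH2 was 0.333 (0.316 to 0.351) in the refractory and 1.48 (1.44 to 1.51) in the untreated tumour. NOTCH2 over NOTCH1 was 4.0 (3.79 to 4.23) in the refractory and 3.07 (2.95 to 3.18) in the untreated tumour. No pair of these intervals overlapped between the tumours. The intervals cover counting error only, and how often those of other gene pairs overlap was not counted. Without NOTCH3, the summed CPM of NOTCH1 and NOTCH2 was 148 in the refractory and 206 in the untreated tumour, a ratio of 0.717 (0.699 to 0.736).

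**Figure D2:**
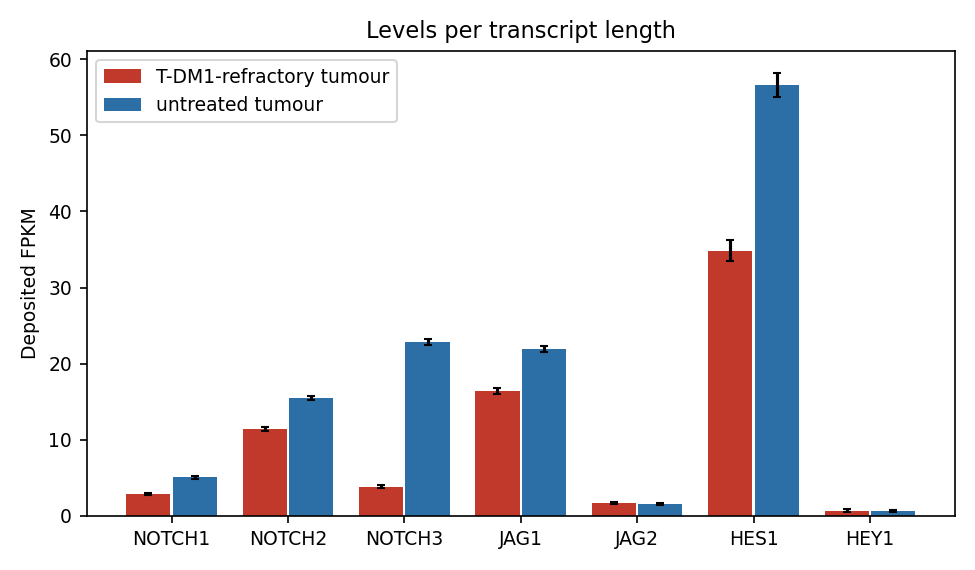
Deposited FPKM of the 7 described members in the refractory tumour (left bar of each pair) and the untreated tumour (right bar), with 95% Poisson intervals of the counts as error bars. NOTCH3 stands at 3.81 FPKM in the refractory and 22.8 FPKM in the untreated tumour, while HES1 is the highest member in both.

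Ligand mRNA was almost all Jagged. JAG1 (chromosome 20, 10639498 to 10673530), the main Jagged ligand of many epithelia, had 94.4 CPM in the refractory and 124 CPM in the untreated tumour, a ratio of 0.762 (95% exact interval 0.737 to 0.788). JAG2 (chromosome 14, 105142695 to 105168420), the second Jagged ligand, had 9.29 CPM in the refractory and 8.16 CPM in the untreated tumour, a ratio of 1.14 (1.01 to 1.28). JAG1 made up 90.4% of the FPKM of the 4 ligands in the refractory and 93.0% in the untreated tumour. JAG1 over JAG2, in FPKM, was 9.80 (8.98 to 10.7) in the refractory and 14.6 (13.4 to 15.8) in the untreated tumour.

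The Delta-like ligands were not described. DLL1, a ligand of stem cell niches, had 8 counts in the refractory and 23 in the untreated library, a CPM ratio of 0.448 with an exact interval of 0.173 to 1.04. DLL4, a ligand of sprouting endothelium, had 5 counts in the refractory and 8 in the untreated library, with an interval of 0.207 to 2.79. Both intervals include 1, so no difference was detectable at this depth. The annotated DLL1 gene overlaps FAM120B, and whether counting used strand is not given in the labels.

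JAG1 relative to the receptors also differed with NOTCH3. JAG1 over NOTCH3, in FPKM, was 4.30 (95% exact interval 4.08 to 4.54) in the refractory and 0.961 (0.936 to 0.986) in the untreated tumour. JAG1 over NOTCH2 was 1.43 (1.39 to 1.49) in the refractory and 1.42 (1.38 to 1.46) in the untreated tumour, and those intervals overlapped.

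HES1 (chromosome 3, 194136381 to 194138233), the basic helix-loop-helix repressor whose promoter is printed above, had 41.2 CPM in the refractory and 66.2 CPM in the untreated tumour. The ratio was 0.621 (95% exact interval 0.592 to 0.652), and its log2 change of -0.67 lay at the 16.8 percentile of all described genes. HES1 stood between NOTCH1 (-0.77, 14.6 percentile) and NOTCH2 (-0.40, 25.2 percentile) by log2 change. HEY1 (chromosome 8, 79765188 to 79766263), a related repressor with many roles in vessels, had 80 counts in the refractory and 101 in the untreated library. Its CPM ratio was 1.02 with an exact interval of 0.752 to 1.38, and the sign of its log2 change of 0.02 turned when the 50 most abundant genes were left out of the library totals. HES1 over HEY1, in FPKM, was 52.2 (41.8 to 66.1) in the refractory and 85.6 (70.3 to 105) in the untreated tumour.

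By FPKM the order in the refractory tumour was HES1 (34.8), JAG1 (16.4), NOTCH2 (11.4), NOTCH3 (3.81), NOTCH1 (2.86), JAG2 (1.67), HEY1 (0.667), DLL1 (0.0442) and DLL4 (0.0267). In the untreated tumour it was HES1 (56.6), NOTCH3 (22.8), JAG1 (21.9), NOTCH2 (15.4), NOTCH1 (5.04), JAG2 (1.5), HEY1 (0.661), DLL1 (0.10) and DLL4 (0.0336). The positions of the other members relative to each other were the same in both, and NOTCH3 stood 2 places lower in the refractory tumour. DLL1 over DLL4, in FPKM, was 1.66 (95% exact interval 0.478 to 6.44) in the refractory and 2.98 (1.29 to 7.70) in the untreated tumour, so the order of these neighbours exceeded counting error in the untreated library only. NOTCH3 and JAG1 in the untreated library had intervals of 22.4 to 23.2 and 21.5 to 22.3 FPKM that did not overlap, a gap that rests on counting error alone.

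**Figure D3:**
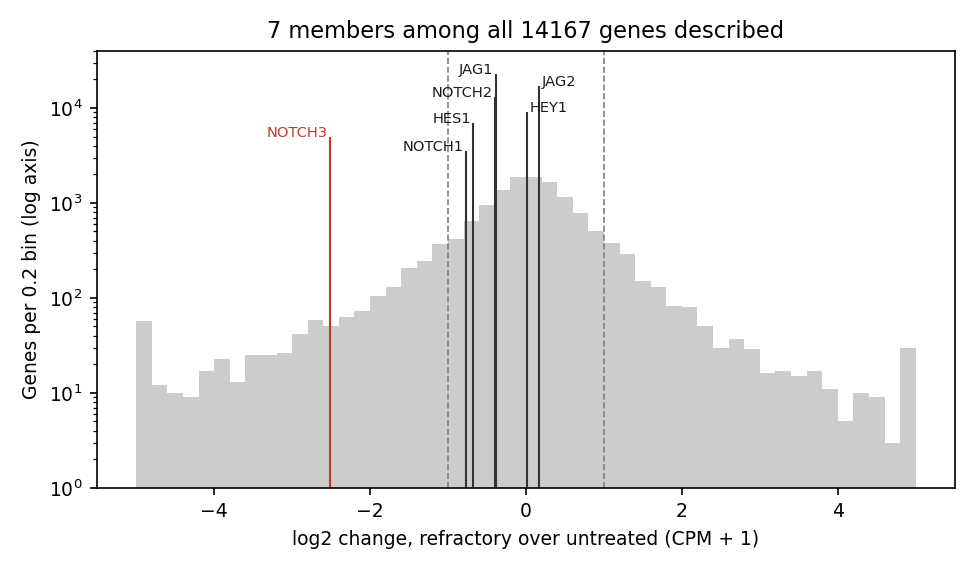
Number of described genes (vertical log axis) per 0.2 bin of log2 change, refractory over untreated, with changes beyond 5 in either direction put in the end bins; vertical lines mark the 7 described members and dashed lines 2-fold. NOTCH3 at -2.52 is the one member beyond the dashed lines.

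NOTCH3 lies in band 19p13, where neighbouring genes were lower as well. Within 1 Mb on either side 24 genes were described, and 23 of them had a log2 change below 0. Their median was -0.67, 8 were at least 2-fold lower (33.3%, against 11.0% of all described genes) and 1 was at least 2-fold higher. NOTCH3 was the third lowest of the 25 genes, 1.85 below the median of its neighbours. Among the lower neighbours, CYP4F3, a fatty acid hydroxylase, stood at 12.5 CPM in the refractory and 86.6 CPM in the untreated tumour. CYP4F11 stood at 0.775 CPM in the refractory and 11.0 CPM in the untreated tumour. It was described through the untreated library only, so the filter fixed its direction. UCA1, a long non-coding RNA, was the one higher neighbour, at 33.4 CPM in the refractory and 16.0 CPM in the untreated tumour. These neighbours were named after their values were seen, and gene copy number was not measured.

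**Figure D4:**
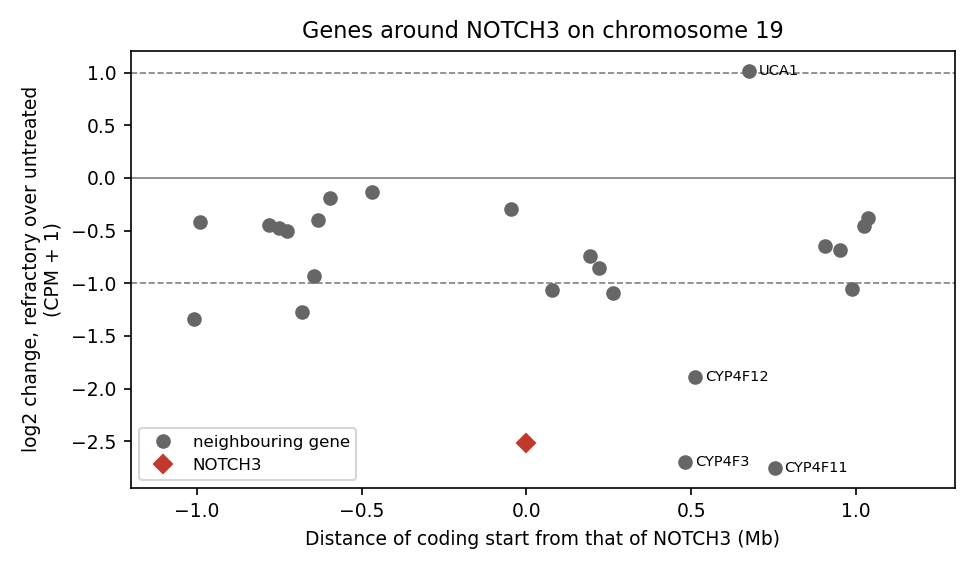
Log2 change, refractory over untreated, of the genes described within 1 Mb of NOTCH3 (grey circles) and of NOTCH3 (red diamond) against the distance between coding starts in Mb; dashed lines mark 2-fold. Of 24 neighbours 23 lie below 0, and NOTCH3 lies below their median of -0.67.

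Around the other members the neighbours went both ways, except around JAG1. The 59 genes described around NOTCH1 had a median of 0.28 and the 9 around HES1 a median of 0.37. Both members lay more than 1 log2 unit below the median of their neighbours. Some neighbours were lower still, as NOTCH1 held rank 6 and HES1 rank 3 from the lowest. The 17 genes around NOTCH2 had a median of -0.27, and NOTCH2 was 0.13 below it. Around JAG1 3 genes were described, all below 0, with a median of -0.08.

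NOTCH3 is also a marker of mural cells, the pericytes and smooth muscle of vessels. The table holds human genes, the host was a mouse, and the treatment of mouse reads is not stated in the labels. The counts of 2-fold differences that follow stand against 9.80% higher and 11.0% lower among all described genes. Of the 9 other mural markers 4 were described, of which MCAM was higher and DES, described through the untreated library only, was lower. Their summed level was 25.1 CPM in the refractory and 15.1 CPM in the untreated tumour. MCAM, at 16.5 CPM in the refractory and 1.49 CPM in the untreated tumour, set that direction, and without it the sum was 8.60 CPM in the refractory and 13.6 CPM in the untreated tumour. Most of that remainder was RGS5, at 5.39 CPM in the refractory and 8.72 CPM in the untreated tumour. CSPG4 stood at 1.80 CPM in the refractory and 1.56 CPM in the untreated tumour. ACTA2, not described, had 53 counts in the refractory and 13 in the untreated library. MYH11 had 12 counts in the refractory and 28 in the untreated library, and ABCC9 0 in the refractory and 22 in the untreated one. PDGFRB, a defining pericyte receptor, stood at 0.0506 CPM in the refractory and 0.0262 CPM in the untreated tumour, and KCNJ8 had 0 counts in both. Of 10 endothelial markers 3 were described (ROBO4, VWF and ESAM), all through the untreated library only, and their list summed to 1.13 CPM in the refractory and 6.85 CPM in the untreated tumour. ROBO4, the one called lower, had 4 counts in the refractory and 175 in the untreated library. TEK, KDR and EMCN had 0 counts in the refractory library, against 54 for TEK, 29 for KDR and 21 for EMCN in the untreated one. CDH5, TIE1 and ERG had 0 counts in both libraries. Of 8 macrophage and leukocyte markers 4 were described, of which 3 were higher (CD68, ITGAM and LYZ) and 0 lower. ITGAM and CD14 were described through the refractory library only, so the filter fixed their direction. The whole list summed to 130 CPM in the refractory and 31.8 CPM in the untreated tumour. Without LYZ the sum was 34.3 CPM in the refractory and 4.60 CPM in the untreated tumour. Most of that second sum was CD68, at 29.2 CPM in the refractory and 3.62 CPM in the untreated tumour. PTPRC had 17 counts in the refractory and 5 in the untreated library. CSF1R had 3 counts in the refractory and 0 in the untreated library, CD163 1 in the refractory and 4 in the untreated one. AIF1 had 0 counts in both libraries. The part of these cell types in the differences above was not tested. All 8 epithelial markers were described, 2 of them higher and 0 lower. CDH17 stood at 629 CPM in the refractory and 3.44 CPM in the untreated tumour, and CEACAM5 at 189 CPM in the refractory and 89.7 CPM in the untreated tumour. The keratin KRT8, not past 2-fold, stood at 1827 CPM in the refractory and 3204 CPM in the untreated tumour, and EPCAM at 785 CPM in the refractory and 471 CPM in the untreated tumour. In a bulk tumour, fewer cells of a type and less RNA per cell cannot be told apart.

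The rest of the pathway was read in 9 lists by role, with 70 genes of which 56 were described. At least 2-fold, 4 were higher, against 9.80% of all described genes, and 5 were lower, against 11.0%. Their median log2 change was 0.03, the same as that of all described genes to this precision. The 9 genes that passed are given here in the order of signalling. TLE4 and HEY2 were described through the untreated library only and SPDEF through the refractory library only.

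None of the 4 further receptors and ligands was described, with NOTCH4, a receptor of endothelium, at 0.573 CPM in the refractory and 0.353 CPM in the untreated tumour. Ubiquitin ligases that make ligands active by internalising them had 1 of 3 described genes higher and 0 lower (median 0.03). NEURL1B stood at 88.4 CPM in the refractory and 42.8 CPM in the untreated tumour, a ratio of 2.07 (95% exact interval 1.98 to 2.16). Enzymes that add sugars to the receptors had 0 of 5 past 2-fold (median 0.14), and POFUT1, the O-fucosyltransferase of NOTCH, was the most abundant at 69.4 CPM in the refractory and 62.9 CPM in the untreated tumour.

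Genes of receptor cleavage had 1 of 9 higher and 1 lower (median 0.08). ADAM10, the metalloprotease of the first ligand-induced cut, had 398 CPM in the refractory and 1238 CPM in the untreated tumour. Its ratio was 0.322 (95% exact interval 0.317 to 0.326), and in the authors' deposited table its p-value was 0.138. PSENEN, a gamma-secretase subunit, stood at 62.8 CPM in the refractory and 30.0 CPM in the untreated tumour, a ratio of 2.09 (1.98 to 2.2).

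The nuclear complex had 0 of 7 genes higher and 1 lower (median -0.18). MAML3, a Mastermind coactivator, had 7.79 CPM in the refractory and 18.8 CPM in the untreated tumour, a ratio of 0.414 (95% exact interval 0.372 to 0.460). RBPJ, the DNA-binding partner, stood just under 2-fold on this scale, with 164 CPM in the refractory and 82.1 CPM in the untreated tumour and a log2 change of 0.99.

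Among 12 corepressor genes 0 were higher and 2 lower (median -0.20), both of the Groucho family, whose proteins are recruited by HES factors. TLE4 had 2 counts in the refractory library and 5239 in the untreated one, a CPM ratio of 4.92e-04 (95% exact interval 5.96e-05 to 0.00178). TLE2 stood at 1.16 CPM in the refractory and 7.08 CPM in the untreated tumour, a ratio of 0.164 (0.126 to 0.211). TLE1 and TLE3 of the same family were not past 2-fold, TLE1 at 43.2 CPM in the refractory and 21.8 CPM in the untreated tumour, and TLE3 at 22.4 CPM in the refractory and 27.7 CPM in the untreated tumour. Genes of receptor turnover and inhibition had 0 of 9 past 2-fold (median 0.08). DTX3L was the most abundant of them, at 351 CPM in the refractory and 287 CPM in the untreated tumour.

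Further targets had 1 of 9 higher and 1 lower (median -0.27). HEY2, a relative of HEY1, had 12 counts in the refractory and 251 in the untreated library, a ratio of 0.0616 (95% exact interval 0.0314 to 0.110). MYC, a growth-promoting transcription factor and NOTCH target in lymphoid cells that many other pathways control, stood at 147 CPM in the refractory and 71.1 CPM in the untreated tumour, a ratio of 2.07 (2.0 to 2.1). NRARP, a feedback inhibitor induced by NOTCH, was not past 2-fold, at 14.5 CPM in the refractory and 20.8 CPM in the untreated tumour. HEYL was described through the untreated library only, at 0.893 CPM in the refractory and 2.58 CPM in the untreated tumour. Its ratio was 0.347 (0.251 to 0.472), but with 1 CPM added its log2 change was -0.92, so it was not called.

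Genes of secretory fate, which NOTCH holds back in gut, reached at most 8.63 CPM (SPDEF) in the refractory and 3.02 CPM (GFI1) in the untreated tumour. An action of HES1 on them was not tested. Of the 6 genes, 4 were under 1 CPM in both libraries. Of those 4, 3 had 0 counts in both, ATOH1 and NEUROG3 among them, which allows up to 0.0506 CPM in the refractory and 0.0392 CPM in the untreated library at 3 counts. SPDEF, a factor of goblet and other secretory cells, had 512 counts in the refractory and 13 in the untreated library, a ratio of 50.8 (95% exact interval 29.4 to 96.0). It was the 1 of 2 described genes of this list past 2-fold. The other was GFI1, at 4.87 CPM in the refractory and 3.02 CPM in the untreated tumour. INSM1, a neuroendocrine factor, was not described, with 12 counts in the refractory and 1 in the untreated library, a ratio of 15.5 (2.29 to 661).

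**Figure D5:**
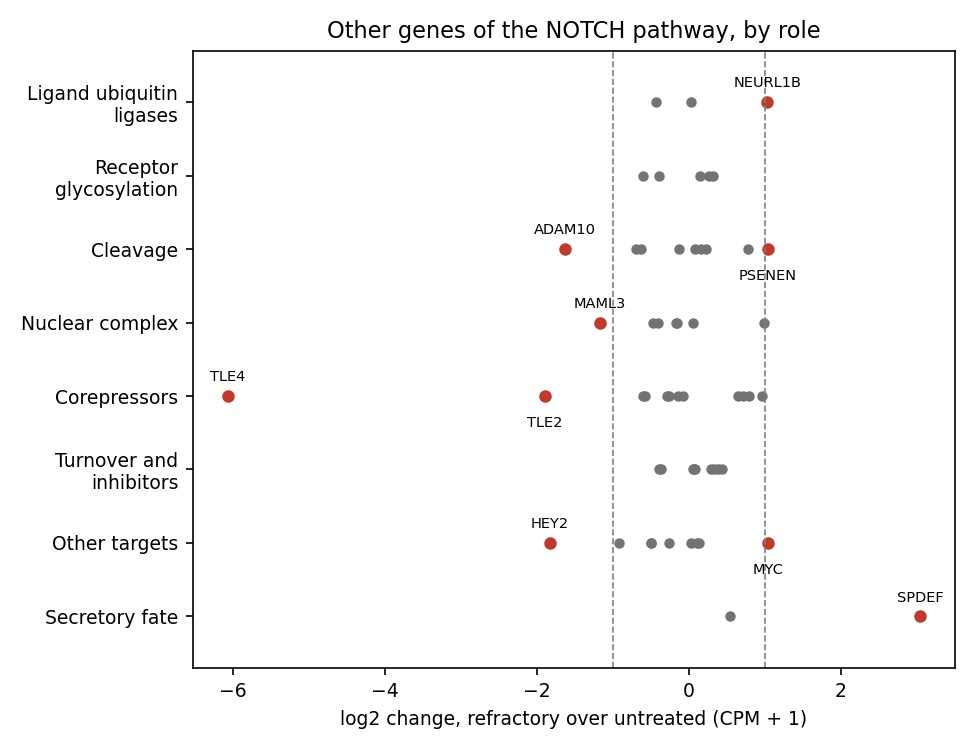
Log2 change, refractory over untreated, of the described genes in 8 pathway lists, 1 point per gene; dashed lines mark 2-fold and red points with names are the genes beyond them. TLE4 lies farthest to the left at -6.07 and SPDEF farthest to the right at 3.04, while the other named genes lie between -1.90 and 1.04.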

How the data were processed

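Polyadenylated RNA libraries (TruSeq mRNA, per the labels' protocols) of 1 refractory and 1 untreated tumour were compared. The submitters' processing notes name GRCh38, GRCm38, RSEM 1.2.28, STAR 2.7.0e, edgeR 3.26.8 and bcl2fastq 2.20, without a role for any of them. Read counts as deposited are expected (estimated) counts for each gene, rounded here to whole numbers. The deposited FPKM are scaled by length and depth, per the file headers. The authors' log2 fold change matched refractory over untreated, within 0.00387 of the log2 ratio of TMM-scaled expected counts over 13005 genes with more than 50 counts in both libraries. The deposited p-value contrasts 2 single libraries rather than conditions. Deposited coding starts count from 0 and are printed counted from 1; starts and ends of all 9 members coincided with codon ends in GENCODE 29.

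TMM factors (edgeR 4.0.16, R 4.3.3) were 0.990 for the refractory and 1.01 for the untreated library. Intervals are exact 95% Clopper-Pearson intervals for 2 Poisson counts, and cover counting error only, since each group is 1 library. They make no allowance for PCR copies, which no molecular identifiers mark, or for uncertainty in the expected counts. Alternatives covered scaling, pseudocount, filter, FPKM and threshold. The members and lists were chosen with earlier results of these data known. All 9 members, ERBB2, and each list's genes past 2-fold, or its most abundant gene where none passed, were named by rule. Other genes were named after their values were seen. Some results under these rules are left out here.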

Additional observations from a re-analysis of the deposited data

How the results depend on the processing

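NOTCH3 stayed past 2-fold, lower in the refractory tumour, under all 10 alternatives. Its log2 change was -2.31 on deposited FPKM with 1 FPKM added, -2.37 with 5 CPM added and -2.55 at the lowest. The 1 FPKM added weighs more than 1 CPM, since NOTCH3 stood at 3.81 FPKM and 29.8 CPM in the refractory tumour. NOTCH3 was also past 4-fold. No member was called higher under any alternative. At 1.5-fold 3 members were lower (NOTCH1, NOTCH3 and HES1), against 18.9% of all described genes. The signs of NOTCH1, NOTCH2, JAG1, JAG2 and HES1 held in every alternative in which they were described, and HEY1 turned only without the 50 most abundant genes. Genes called in the whole table numbered 821 higher and 840 lower with 5 CPM added, 2755 and 2677 at 1.5-fold, 360 and 504 at 4-fold, and 921 lower with a filter of 10 CPM. In the role lists 2 were higher and 2 lower with 5 CPM added, 10 and 10 at 1.5-fold, 1 and 1 at 4-fold, and 3 lower with a filter of 10 CPM. As a share of counts in place of FPKM, NOTCH3 took 16.7% of receptor signal in the refractory and 45.9% in the untreated tumour. The median log2 change of the neighbours of NOTCH3 was -0.67 in the main setting. It ran from -0.46 with no filter on low values to -0.71 with a filter of 10 CPM, under alternatives added after the data were seen. No paired analysis was possible because each group is 1 library. The design has no replicates, so none could be left out.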

Other observations

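Proteins reported as non-canonical NOTCH ligands were looked up in a list of 8 genes written after the members' values were seen. Of these, 6 were described, 5 lower by 2-fold or more in the refractory tumour, against 11.0% of all described genes, and 0 higher, against 9.80%. The median log2 change was -1.78. NOV (CCN3), a matricellular protein, had 8.38 CPM in the refractory and 95.1 CPM in the untreated tumour, a ratio of 0.0881 (95% exact interval 0.0803 to 0.0965). MFAP5, a microfibril protein, had 0 counts in the refractory and 1288 in the untreated library, at least 333-fold lower at a floor of 3 counts per library. Its relative MFAP2 stood at 4.16 CPM in the refractory and 18.4 CPM in the untreated tumour. DNER, a transmembrane protein of neurons, had 0 counts in the refractory and 162 in the untreated library, at least 41.9-fold lower. THBS2, a thrombospondin, stood at 0.472 CPM in the refractory and 2.47 CPM in the untreated tumour. DNER, MFAP5 and THBS2 were described through the untreated library only, so the filter fixed their direction. Of the 5 lower genes, only NOV and MFAP2 exceeded 1 CPM in both libraries. EGFL7, known from endothelium, had 1.28 CPM in the refractory and 0.209 CPM in the untreated tumour and was described through the refractory library only.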
